A study of Rattus norvegicus with 46 samples.

Results

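The 33 genes described here encode the enzymes of cholesterol synthesis, the sensor and transcription factor that set their level, and the proteins that store, take up and export cholesterol. They were taken by gene name and not by a filter on their counts, though earlier results of these data were known. They are 33 of the 32552 genes in the count table, each with a single row. The study sequenced bulk RNA from liver and quadriceps of rats, all labelled wild type, in 46 libraries. Its groups were CagriSema (7 livers, 8 quadriceps libraries), weight matched (8 livers, 8 quadriceps libraries) and vehicle (8 livers, 7 quadriceps libraries). CagriSema joins 2 drugs, the amylin analogue cagrilintide and the incretin mimic semaglutide. Weight matched rats had their food restricted instead. The rats were obese from their diet, which the controls share, and the design text gives 20 days of treatment or restriction for the livers. No strain, sex, age or diet composition, and no duration for the quadriceps, is given in the labels. Whether each library is from its own rat is not stated either, so p-values measure the spread between libraries only.

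Cholesterol is built from acetyl-CoA through mevalonate to squalene, which is closed into lanosterol and trimmed to cholesterol by a chain of sterol enzymes. The pathway is governed by SREBP2, encoded by Srebf2: when membranes hold little sterol, Scap carries SREBP2 out of the endoplasmic reticulum to be cut into an active transcription factor, and when sterol is plentiful the Insig proteins hold Scap back. Most synthesis enzymes and Insig1 are known SREBP2 targets. The liver is a main site of synthesis and the organ that sends cholesterol into bile, while skeletal muscle makes little for other organs.

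The livers had totals of 9888858 to 15948219 counts, and the quadriceps libraries 11462369 to 16525274. A floor of 3 counts stood at 0.188 to 0.303 CPM in liver and at 0.182 to 0.262 CPM in quadriceps, on raw library totals. All other CPM values are counts scaled to a common library total by trimmed means, so the floor is only approximate beside them. All 33 genes passed the filter on low counts in liver and 30 passed in quadriceps; Soat2, Abcg5 and Abcg8 did not. Vehicle liver 4 stood apart with 1.85% ribosomal protein counts, against 0.640 to 0.933% in the other livers, and vehicle liver 6 with 9.29% mitochondrial counts, against 4.09 to 5.81%. The 8 hepatocyte marker genes summed to 104441 to 131445 CPM in CagriSema livers, 109801 to 136002 CPM in weight matched livers and 118128 to 186539 CPM in vehicle livers, and 7 skeletal muscle fibre markers summed to 112894 to 214693 CPM over the quadriceps libraries. The hepatocyte sum was 36.1 to 112 CPM in quadriceps, and the muscle sum was 87.6 CPM in vehicle liver 1 and at most 2.72 CPM in the other livers. The highest hepatocyte sum was that of vehicle liver 4. In bulk RNA, fewer cells of a type and less RNA per cell cannot be told apart.

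Promoter sequence is shown because these genes are known to be switched together through short boxes beside their starts. RefSeq windows of 300 bases (250 before to 50 after the start, build GRCr8) matched 26 of the 33 genes by symbol. CCAAT, the box bound by NF-Y, a factor known to work beside SREBP2, occurred on either strand in 20 of the 26 windows (76.9%), against 37.5% of all 33469 windows; 11 of the 26 (42.3%) held 2 or more, against 11.2% of all. GGGCGG, the core of the GC box, was in 20 of 26 (76.9%), against 33.1% of all. Of the sterol response letters, TCACNCCA was in 2 of 26 (Srebf2 and Msmo1; 7.69%, against 3.89% of all), and the longer TCACNCCAC, which contains it, was in 0 of 26, against 1.12%. The E-box CACGTG was in 4 of 26 (15.4%), against 6.42% of all. A match is a run of letters and no test of binding, and a missing match concerns these letters in this window alone. Below are the 250 bases before the start of 2 enzymes called in liver, of the regulator and its retention partner, and of a bile exporter, 5′ to 3′ along each gene; capitals mark CCAAT on either strand (read as ATTGG on the other) and, in Srebf2, also TCACCCCA.
Mvd (chr19:67414975-67415224, minus strand): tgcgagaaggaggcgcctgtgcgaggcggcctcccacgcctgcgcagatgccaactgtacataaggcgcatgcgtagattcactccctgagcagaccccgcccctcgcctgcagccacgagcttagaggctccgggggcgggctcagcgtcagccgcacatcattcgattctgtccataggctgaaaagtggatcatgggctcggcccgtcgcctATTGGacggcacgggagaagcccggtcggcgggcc
Nsdhl (chrX:155817110-155817359, plus strand): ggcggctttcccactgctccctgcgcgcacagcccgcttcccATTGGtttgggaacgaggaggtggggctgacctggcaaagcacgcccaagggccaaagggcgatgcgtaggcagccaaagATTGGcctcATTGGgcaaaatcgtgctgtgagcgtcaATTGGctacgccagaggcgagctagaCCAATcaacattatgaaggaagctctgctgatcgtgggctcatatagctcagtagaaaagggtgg
Srebf2 (chr7:115543057-115543306, plus strand): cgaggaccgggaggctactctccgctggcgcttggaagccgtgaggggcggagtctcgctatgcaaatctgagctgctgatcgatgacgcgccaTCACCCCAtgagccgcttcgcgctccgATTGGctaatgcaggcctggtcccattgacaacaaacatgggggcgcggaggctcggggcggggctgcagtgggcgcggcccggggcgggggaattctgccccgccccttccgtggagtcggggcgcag
Insig1 (chr4:8057770-8058019, minus strand): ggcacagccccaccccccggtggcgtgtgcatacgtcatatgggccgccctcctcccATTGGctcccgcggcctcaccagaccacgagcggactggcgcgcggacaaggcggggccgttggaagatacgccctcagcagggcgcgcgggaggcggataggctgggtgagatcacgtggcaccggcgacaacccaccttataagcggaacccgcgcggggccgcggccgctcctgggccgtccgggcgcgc
Abcg5 (chr6:15717686-15717935, plus strand): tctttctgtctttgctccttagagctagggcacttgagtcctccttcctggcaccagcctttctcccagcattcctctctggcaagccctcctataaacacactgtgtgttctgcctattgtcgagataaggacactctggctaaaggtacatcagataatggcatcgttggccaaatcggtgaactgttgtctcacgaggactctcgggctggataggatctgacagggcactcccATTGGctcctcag
Nsdhl held 5 CCAAT boxes in these bases, Mvd and Insig1 1 each. Abcg5 and Abcg8 lie head to head: their windows share 295 of 300 bases on opposite strands, with starts 206 bases apart, so the CCAAT in the Abcg5 stretch is also the one of Abcg8. Among the 9 genes that fell with weight matching in liver (next), 7 had a window and 5 of these held CCAAT, while 15 of 19 windows of the other genes did.

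In liver, calls among the cholesterol genes came mainly with weight matching, and none came with CagriSema over vehicle. Weight matched livers had 9 of the 33 genes lower than vehicle and 1 higher (30.3% of the genes, against 7.02% of all 12702 genes tested), called at an adjusted p under 0.05 (quasi-likelihood test of edgeR, Benjamini-Hochberg over all genes). Of all genes, 4.53% were called lower and 2.49% higher. The median log2 fold change of the 33 was -0.46, against -0.01 for all genes, and 24 of 33 values (51.9% of all genes) were below 0. CagriSema livers had 0 of 33 called against vehicle (all genes: 0.354%) and 9 at an unadjusted p under 0.05 (all genes: 17.8%). Their median was 0.04 (all genes: -0.02), and DESeq2 called 2, Hsd17b7 higher and Scarb1 lower (all genes by DESeq2: 2.28%). CagriSema livers had 2 of 33 called higher than weight matched livers and 0 lower (6.06%, against 0.535% of all genes in either direction and 0.244% higher). In that comparison 26 of 33 values were above 0 (all genes: 50.1%), with a median of 0.38 (all genes: 0.00). There 19 of 33 genes had an unadjusted p under 0.05 (all genes: 10.6%). The 3 comparisons share libraries and are not independent of each other. The hepatocyte marker sum moved with the groups as well, with medians of 113564 CPM in CagriSema, 129479 CPM in weight matched and 144865 CPM in vehicle livers, and its part in these values was not tested.

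**Figure D1:**
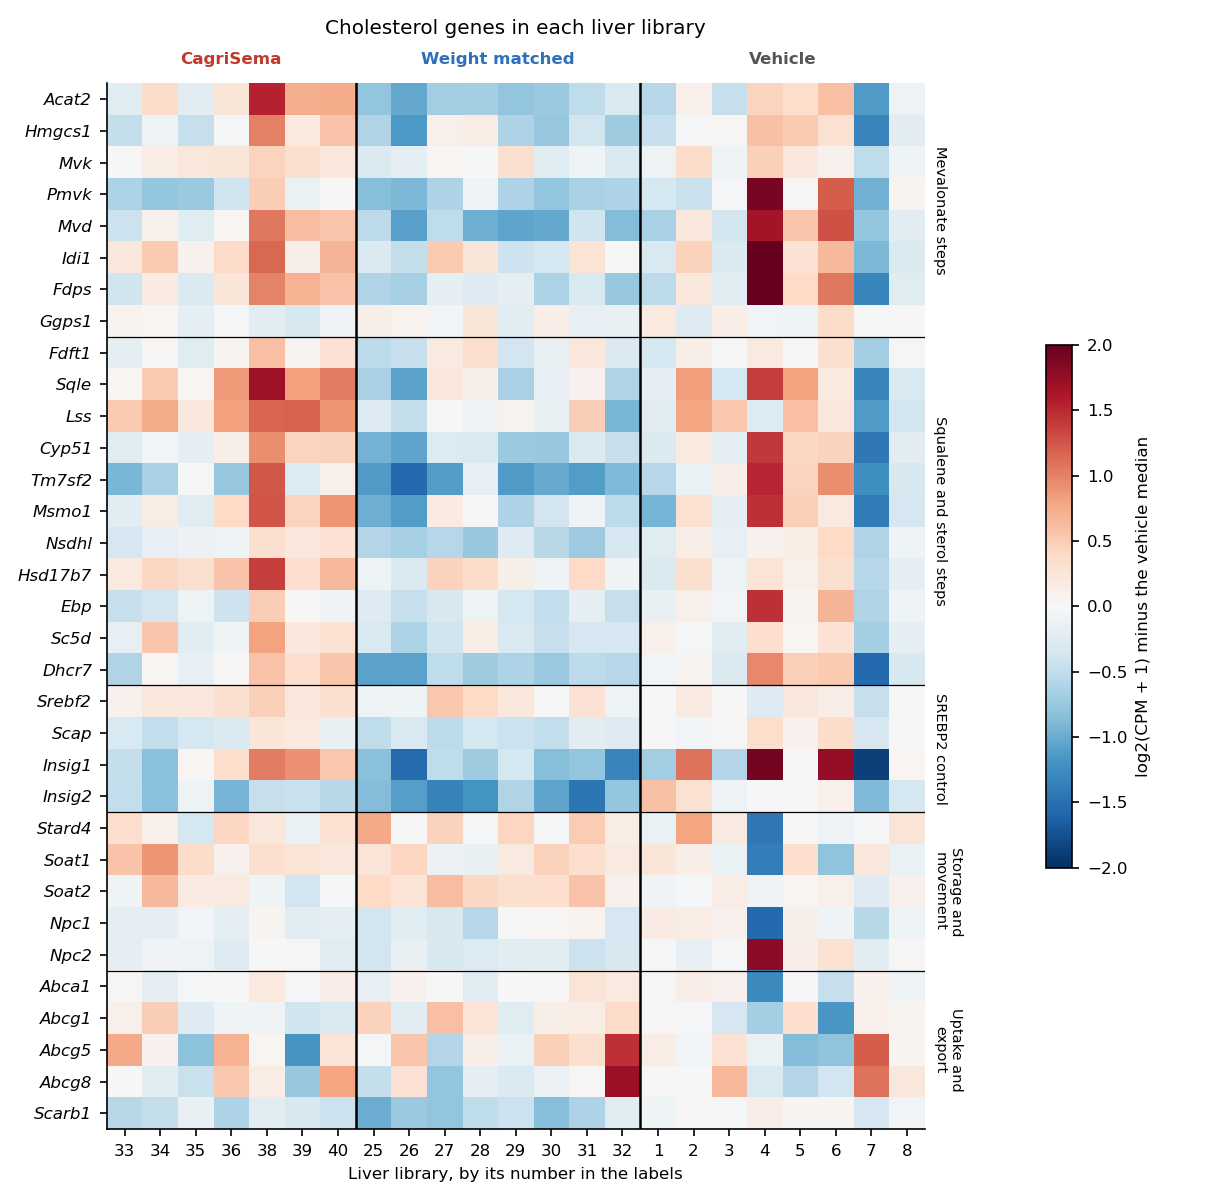
Each liver library is a column, by treatment group and its number in the labels, and each gene a row, ordered by role; colour gives log2(CPM + 1) minus the median of the vehicle livers, with values past 2 (Idi1 and Fdps in vehicle liver 4) drawn in the end colour. Vehicle livers 4 and 6 are high and vehicle liver 7 is low for most synthesis enzymes, CagriSema liver 38 is high, and the weight matched columns are mostly below the vehicle median down to Insig2.

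Libraries of the same group stood apart from each other in the map of the liver libraries. Of the 19 synthesis enzymes, vehicle liver 4 had the highest vehicle value of 13 and vehicle liver 7 the lowest of 18, and CagriSema liver 38 had the highest CagriSema value of 17. The median coefficient of variation over the 19 enzymes was 31.6% in CagriSema livers, 21.1% in weight matched livers and 45.4% in vehicle livers. Weight matched livers had the lowest value of this measure. Their library 32 exceeded the vehicle median for 0 of 19 enzymes, while vehicle liver 6 did for all 19.

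Of the 8 enzymes that lead through mevalonate to the isoprenoid pyrophosphates, 2 fell with weight matching in liver, none passed with CagriSema against vehicle, and 1 was higher with CagriSema than with weight matching. All 8 had a log2 fold change below 0 with weight matching, with a median of -0.64, and 7 of 8 were above 0 with CagriSema over weight matching, with a median of 0.58. Acat2 spanned 9.70 to 35.7 CPM in CagriSema livers (median 15.3), 5.25 to 9.24 CPM in weight matched livers (median 6.72) and 4.75 to 18.3 CPM in vehicle livers (median 11.7). Acat2 makes acetoacetyl-CoA in the cytosol, the first step of the route. Every CagriSema liver was above every weight matched liver, and the vehicle livers ran across both groups, from library 7 to library 6. Acat2 and Cyp51 (below) were the 2 of 33 genes whose CagriSema and weight matched livers did not overlap, both higher with CagriSema (all genes: 1.27% in either direction, 0.583% higher). The log2 fold change of Acat2 was 1.36 ± 0.27 (adjusted p = 0.0185) over weight matched livers and 0.60 ± 0.26 (adjusted p = 0.241) over vehicle livers, each ± SE. Weight matched over vehicle livers gave -0.76 ± 0.26 (adjusted p = 0.0793).

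Mvd spanned 4.82 to 15.2 CPM in CagriSema livers (median 7.39), 2.71 to 4.93 CPM in weight matched livers (median 3.12) and 3.59 to 23.7 CPM in vehicle livers (median 6.92). Mvd decarboxylates the phosphorylated mevalonate to isopentenyl pyrophosphate. All 8 weight matched livers were below the vehicle median and 5 of 8 were below the lowest vehicle liver, while 6 of 7 CagriSema livers were above every weight matched liver. The log2 fold change of Mvd was -1.45 ± 0.35 (adjusted p = 0.0134) for weight matched over vehicle livers. CagriSema gave -0.15 ± 0.34 (adjusted p = 0.831) over vehicle and 1.30 ± 0.35 (adjusted p = 0.107) over weight matched livers. Pmvk spanned 14.7 to 37.2 CPM in CagriSema livers (median 19.4), 13.5 to 24.7 CPM in weight matched livers (median 16.4) and 12.9 to 99.4 CPM in vehicle livers (median 26.003). Pmvk, the kinase just before Mvd, had its highest values in vehicle livers 4 and 6. Vehicle livers 3, 5 and 8 also lay above every weight matched liver, but inside the CagriSema range. Vehicle livers 1 and 2 lay inside the ranges of both treated groups, and vehicle liver 7 lay below both. All 8 weight matched livers were below the vehicle median of Pmvk. The log2 fold change of Pmvk was -1.12 ± 0.32 (adjusted p = 0.0359) with weight matching and -0.74 ± 0.33 (adjusted p = 0.251) with CagriSema.

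The other 5 mevalonate genes did not pass the test in any liver comparison. Hmgcs1, which condenses acetoacetyl-CoA to HMG-CoA, had log2 fold changes of -0.46 ± 0.25 (adjusted p = 0.251) for weight matched over vehicle livers and 0.63 ± 0.26 (adjusted p = 0.334) for CagriSema over weight matched livers. Fdps, which makes farnesyl pyrophosphate, had -1.07 ± 0.36 (adjusted p = 0.0710) and 0.79 ± 0.37 (adjusted p = 0.428) in these comparisons. Idi1, the isomerase before it, had -0.52 ± 0.31 (adjusted p = 0.306) and 0.53 ± 0.32 (adjusted p = 0.634). Mvk, the first mevalonate kinase, had the narrower values -0.16 ± 0.12 (adjusted p = 0.421) and 0.33 ± 0.12 (adjusted p = 0.286). Ggps1, whose product serves protein prenylation and not sterols, had the smallest change of the 8 with weight matching, -0.04 ± 0.10 (adjusted p = 0.806). It was the only one of the 19 synthesis enzymes below 0 with CagriSema over weight matching, at -0.11 ± 0.10 (adjusted p = 0.846).

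**Figure D2:**
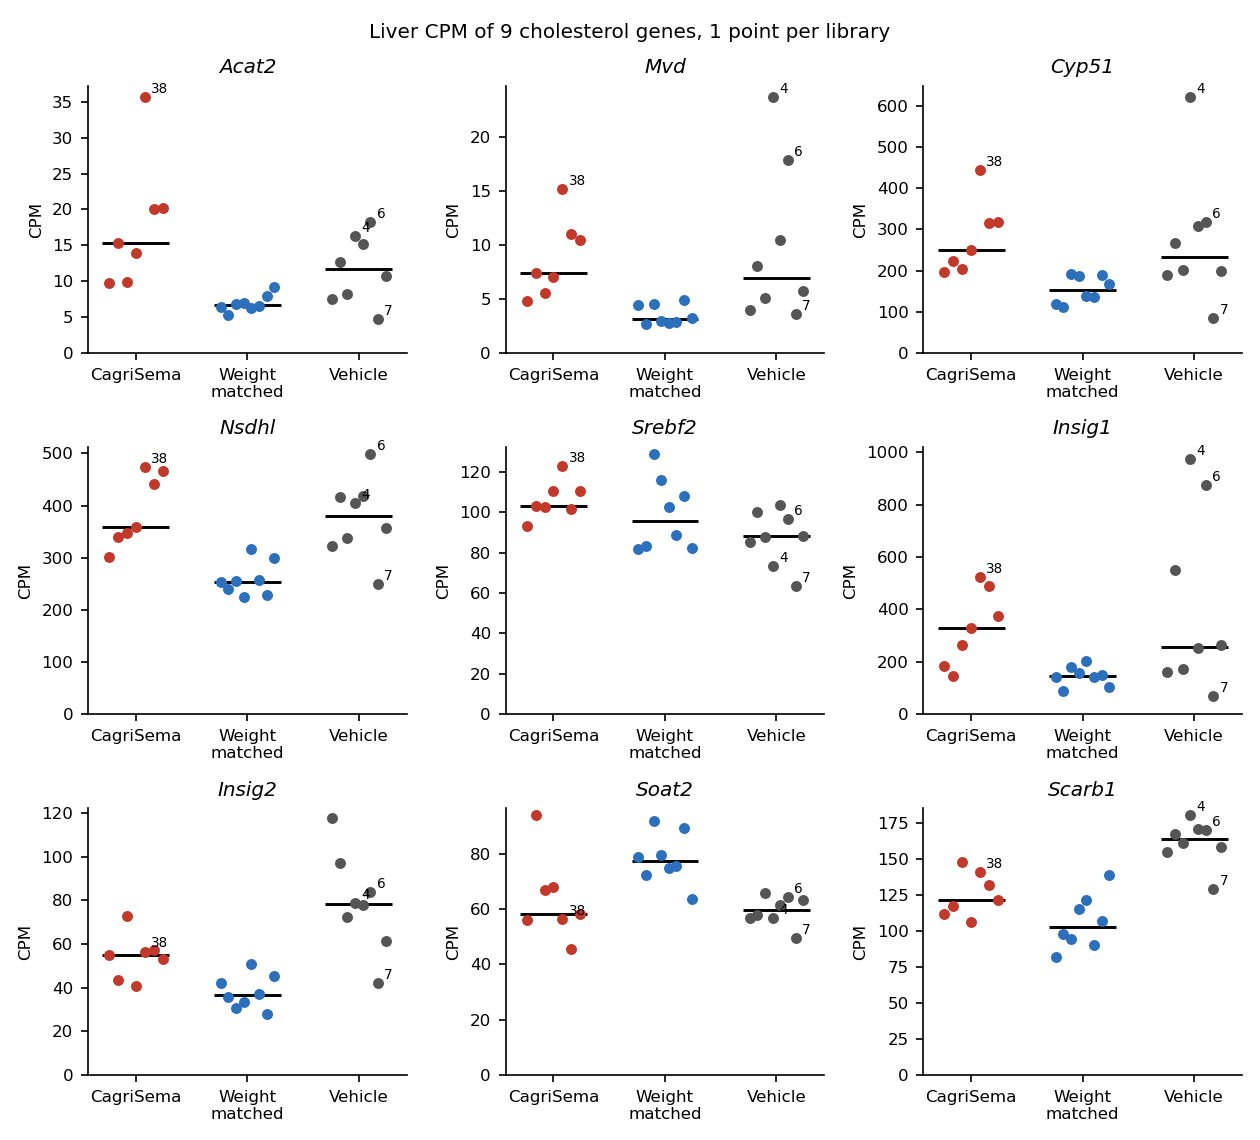
Points are the CPM of single liver libraries for 9 genes in CagriSema (left), weight matched (middle) and vehicle (right) rats, bars are group medians, and vehicle libraries 4, 6 and 7 and CagriSema library 38 are numbered. All CagriSema points of Acat2 and Cyp51 lie above all weight matched points. All 8 weight matched points of Acat2, Mvd, Cyp51, Nsdhl, Insig1, Insig2 and Scarb1 lie below the vehicle median, and all 8 of Soat2 lie above it.

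Of the 11 enzymes from squalene synthesis to cholesterol, 3 fell with weight matching in liver and 1 was higher with CagriSema than with weight matching. The log2 fold change was below 0 for 10 of 11 with weight matching (median -0.57) and above 0 for 11 of 11 with CagriSema over weight matching (median 0.84; 9 of 11 at an unadjusted p under 0.05). Nsdhl spanned 302 to 474 CPM in CagriSema livers (median 359.5), 225 to 316 CPM in weight matched livers (median 254) and 249.6 to 499 CPM in vehicle livers (median 380.5). Nsdhl oxidises and decarboxylates the sterol ring after demethylation. It was called in 2 liver comparisons, with -0.53 ± 0.12 (adjusted p = 0.0103) for weight matched over vehicle livers and 0.59 ± 0.13 (adjusted p = 0.0278) for CagriSema over weight matched livers. In the first, 3 of 8 weight matched livers were below the lowest vehicle liver, library 7, and in the second 6 of 7 CagriSema livers were above the highest weight matched liver. CagriSema over vehicle gave 0.05 ± 0.13 (adjusted p = 0.836).

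Tm7sf2 spanned 37.3 to 170.3 CPM in CagriSema livers (median 59.1), 23.6 to 63.2 CPM in weight matched livers (median 32.2) and 29.8 to 207 CPM in vehicle livers (median 71.6). Tm7sf2, a sterol reductase that shares its step with the lamin B receptor, had its highest value of each treated group far above the next, in CagriSema liver 38 and weight matched liver 28, and its highest vehicle value in library 4. Its log2 fold change was -1.31 ± 0.34 (adjusted p = 0.0227) with weight matching. CagriSema gave -0.33 ± 0.35 (adjusted p = 0.623) over vehicle and 0.98 ± 0.35 (adjusted p = 0.243) over weight matched livers. Dhcr7 spanned 45.7 to 104 CPM in CagriSema livers (median 72.1), 32.6 to 49.0 CPM in weight matched livers (median 43.8) and 23.2 to 137 CPM in vehicle livers (median 69.9). Dhcr7, a reductase of the last steps, had all vehicle livers other than library 7 above every weight matched liver, and 6 of 7 CagriSema livers too. The log2 fold change of Dhcr7 was -0.85 ± 0.24 (adjusted p = 0.0306) with weight matching. CagriSema gave 0.04 ± 0.24 (adjusted p = 0.948) over vehicle and 0.89 ± 0.24 (adjusted p = 0.107) over weight matched livers.

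Cyp51 spanned 196 to 443 CPM in CagriSema livers (median 249), 111 to 192 CPM in weight matched livers (median 153) and 85.4 to 621 CPM in vehicle livers (median 233). Cyp51 demethylates lanosterol. Its CagriSema livers were all above its weight matched livers, and vehicle liver 4 alone exceeded every CagriSema liver. The difference did not pass the test across all genes, at 0.84 ± 0.27 (adjusted p = 0.187), nor did weight matching over vehicle, at -0.82 ± 0.26 (adjusted p = 0.0621). Sqle, which makes the epoxide of squalene and is a control point of the route, had 1.14 ± 0.33 (adjusted p = 0.130) for CagriSema over weight matched livers. Lss, which closes the epoxide into lanosterol, had 0.96 ± 0.24 (adjusted p = 0.0599). Msmo1, the methylsterol oxidase, had 0.86 ± 0.32 (adjusted p = 0.272). Sc5d, the desaturase of the late steps, had 0.56 ± 0.16 (adjusted p = 0.117), and Hsd17b7, the ketosteroid reductase, 0.49 ± 0.17 (adjusted p = 0.231). Fdft1, which joins farnesyl units to squalene, and Ebp, the sterol isomerase, had the smallest values of the 11, 0.21 ± 0.16 (adjusted p = 0.753) and 0.22 ± 0.22 (adjusted p = 0.865). Against vehicle, Lss and Hsd17b7 had the highest CagriSema values of the 11, 0.70 ± 0.23 (adjusted p = 0.158) and 0.61 ± 0.17 (adjusted p = 0.109), and 5 of 7 CagriSema livers exceeded every vehicle liver for Hsd17b7.

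**Figure D3:**
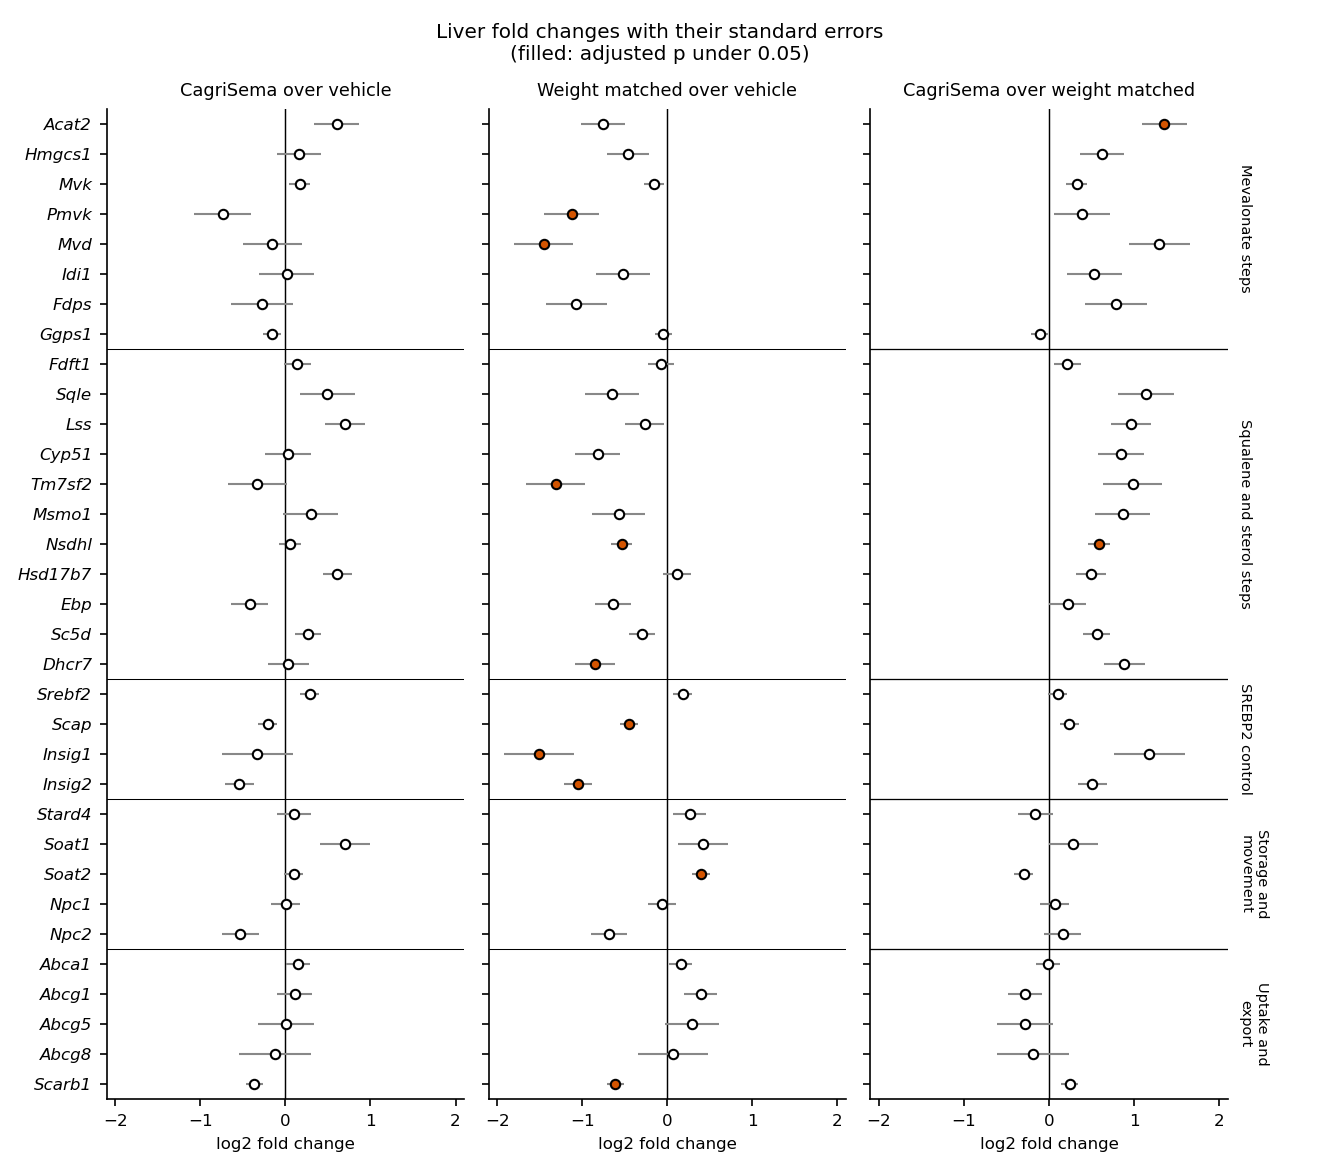
Points are log2 fold changes of the 33 genes by role in the 3 liver comparisons, bars are ± SE, and filled points passed an adjusted p under 0.05. No point is filled for CagriSema over vehicle, 10 are for weight matched over vehicle (9 below 0 and Soat2 above) and 2 for CagriSema over weight matched (Acat2 and Nsdhl).

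Among the 4 genes of SREBP2 control, 3 fell with weight matching in liver and Srebf2 did not pass the test. Srebf2 spanned 93.3 to 123 CPM in CagriSema livers (median 103), 81.9 to 129 CPM in weight matched livers (median 95.6) and 63.4 to 104 CPM in vehicle livers (median 88.1). The groups overlapped, with 3 of 7 CagriSema livers and 3 of 8 weight matched livers above every vehicle liver. All 7 CagriSema livers and 5 of 8 weight matched livers were above the vehicle median. The log2 fold changes of Srebf2 were 0.28 ± 0.11 (adjusted p = 0.205) for CagriSema over vehicle and 0.18 ± 0.11 (adjusted p = 0.300) for weight matched over vehicle livers. CagriSema over weight matched livers gave 0.10 ± 0.11 (adjusted p = 0.888). Scap spanned 74.7 to 124 CPM in CagriSema livers (median 85.8), 73.3 to 91.0 CPM in weight matched livers (median 80.4) and 83.5 to 137 CPM in vehicle livers (median 105). All 8 weight matched livers were below the vehicle median of Scap and 5 of 8 below its lowest vehicle liver. Scap had -0.45 ± 0.11 (adjusted p = 0.0148) with weight matching and -0.21 ± 0.11 (adjusted p = 0.321) with CagriSema.

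Insig1 spanned 144 to 523 CPM in CagriSema livers (median 327), 87.6 to 202 CPM in weight matched livers (median 146) and 69.9 to 975 CPM in vehicle livers (median 257). Insig1 was spread widely over the vehicle livers, with libraries 2, 4 and 6 above every CagriSema liver and library 7 below every weight matched liver. It fell with weight matching, with a log2 fold change of -1.51 ± 0.41 (adjusted p = 0.0276). CagriSema gave -0.33 ± 0.41 (adjusted p = 0.685) over vehicle and 1.18 ± 0.42 (adjusted p = 0.237) over weight matched livers. Insig2 spanned 40.7 to 72.8 CPM in CagriSema livers (median 55.2), 28.2 to 51.1 CPM in weight matched livers (median 36.5) and 42.0 to 118 CPM in vehicle livers (median 78.3). Insig2, the sterol sensor partner that is not driven by SREBP2 in the way Insig1 is, had 5 of 8 weight matched livers below the lowest vehicle liver and its highest vehicle value in library 1. It had the lowest adjusted p of the 33 genes, with -1.05 ± 0.16 (adjusted p = 0.000802) for weight matched over vehicle livers. CagriSema gave -0.54 ± 0.17 (adjusted p = 0.138) over vehicle and 0.51 ± 0.17 (adjusted p = 0.194) over weight matched livers.

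Among the 5 genes of storage and movement inside the cell, Soat2 rose with weight matching and the others did not pass the test. Soat2 spanned 45.4 to 94.1 CPM in CagriSema livers (median 58.2), 63.5 to 91.9 CPM in weight matched livers (median 77.2) and 49.6 to 65.9 CPM in vehicle livers (median 59.7). Soat2 is the acyltransferase that makes cholesteryl esters in hepatocytes, and 7 of 8 weight matched livers exceeded every vehicle liver, against 3 of 7 CagriSema livers. Its log2 fold change was 0.40 ± 0.11 (adjusted p = 0.0314) with weight matching. CagriSema gave 0.10 ± 0.11 (adjusted p = 0.661) over vehicle and -0.30 ± 0.11 (adjusted p = 0.292) over weight matched livers. Soat1, the acyltransferase of macrophages and most other cells, lay between 0.122 and 4.43 CPM over all livers, at its lowest in vehicle liver 4. It had 0.71 ± 0.29 (adjusted p = 0.224) with CagriSema and 0.42 ± 0.29 (adjusted p = 0.375) with weight matching. All 8 Kupffer cell and macrophage markers were detected in liver, with sums of 344 to 449.6 CPM in CagriSema livers, 137 to 445 CPM in weight matched livers and 67.2 to 509.9 CPM in vehicle livers, lowest in vehicle liver 6, where Soat1 was next to lowest. Their part in the Soat1 values was not tested.

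Stard4, a cytosolic sterol carrier, had 0.10 ± 0.20 (adjusted p = 0.806) with CagriSema and 0.26 ± 0.20 (adjusted p = 0.414) with weight matching. Npc1 and Npc2 pass cholesterol out of the lysosome as partners, and their values in vehicle liver 4 were at opposite ends: 44.4 CPM for Npc1, the lowest of all livers, and 321 CPM for Npc2, the highest. Over vehicle, Npc1 had 0.00 ± 0.17 (adjusted p = 0.998) with CagriSema and -0.07 ± 0.16 (adjusted p = 0.825) with weight matching. Npc2 had -0.53 ± 0.22 (adjusted p = 0.225) and -0.69 ± 0.21 (adjusted p = 0.0508). Without vehicle livers 4 and 6, Npc2 had a smaller log2 fold change of -0.24 with weight matching that passed the test (adjusted p = 0.0118).

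Of the 5 genes of uptake and export, Scarb1 fell with weight matching and no exporter passed the test in any liver comparison. Scarb1 spanned 106 to 148 CPM in CagriSema livers (median 121), 81.7 to 139 CPM in weight matched livers (median 102) and 129 to 180.4 CPM in vehicle livers (median 164). Scarb1 takes up cholesteryl esters from HDL. In 7 of 8 weight matched livers it was below the lowest vehicle liver, and 4 of 7 CagriSema livers were below that value too. The log2 fold change was -0.61 ± 0.10 (adjusted p = 0.00101) with weight matching. CagriSema gave -0.37 ± 0.10 (adjusted p = 0.108) over vehicle and 0.24 ± 0.10 (adjusted p = 0.357) over weight matched livers. DESeq2 called the CagriSema value over vehicle too, at -0.37 (adjusted p = 0.0320).

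Abca1 spanned 194 to 254 CPM in CagriSema livers (median 220.4), 191 to 266 CPM in weight matched livers (median 223) and 91.3 to 244 CPM in vehicle livers (median 222). Abca1 loads cholesterol onto apolipoprotein A-I; the 3 groups overlapped, with vehicle livers 4 and 6 the lowest of all. Its values were 0.15 ± 0.14 (adjusted p = 0.579) with CagriSema and 0.16 ± 0.14 (adjusted p = 0.482) with weight matching. Abcg5 spanned 9.38 to 38.7 CPM in CagriSema livers (median 24.022), 14.6 to 63.9 CPM in weight matched livers (median 26.4) and 11.9 to 53.1 CPM in vehicle livers (median 22.5). Abcg8 spanned 1.24 to 5.51 CPM in CagriSema livers (median 2.81), 1.18 to 11.3 CPM in weight matched livers (median 2.41) and 1.53 to 6.98 CPM in vehicle livers (median 2.78). Abcg5 and Abcg8 form the pair that pumps sterols into bile, and both had their highest weight matched value in library 32 and their highest vehicle value in library 7. The log2 fold changes were 0.01 ± 0.33 (adjusted p = 0.990) with CagriSema and 0.29 ± 0.32 (adjusted p = 0.597) with weight matching for Abcg5. Abcg8 had -0.12 ± 0.42 (adjusted p = 0.898) and 0.07 ± 0.41 (adjusted p = 0.932) in the same comparisons. Abcg1, which passes cholesterol to HDL, had 0.11 ± 0.20 (adjusted p = 0.796) and 0.39 ± 0.19 (adjusted p = 0.215).

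Which liver genes were called depended on the vehicle libraries that stood apart. Without vehicle livers 4 and 6, weight matching had 6 of 33 genes called, 5 lower (Nsdhl, Scap, Insig2, Scarb1 and Npc2) and Soat2 higher (all genes: 8.16%), and 5 of the 6 were among the 10 called with all livers. Pmvk (-0.39, adjusted p = 0.259), Mvd (-0.81, adjusted p = 0.0678), Tm7sf2 (-0.79, adjusted p = 0.144), Dhcr7 (-0.56, adjusted p = 0.142) and Insig1 (-0.75, adjusted p = 0.225) no longer passed. The median log2 fold change of the 33 genes with weight matching was then -0.22, and 15 of 19 enzymes were below 0. For CagriSema over vehicle, the enzyme median was 0.39 without these livers and 0.05 with them. The enzymes above 0 were 16 of 19 and 13 of 19, and 0 of 33 genes were called either way. With weight matching, Insig2 had -1.04 without these livers and -1.05 with them, Scarb1 -0.57 and -0.61, and Scap -0.33 and -0.45. Vehicle liver 4 or 6 left out alone gave 7 and 6 genes called with weight matching, and vehicle liver 7 left out alone gave 15. No filter on low counts and a fit of the 2 groups alone gave 7 genes each with weight matching, without Pmvk (adjusted p = 0.0699 and 0.0851), Dhcr7 (0.0520 and 0.0692) and Insig1 (0.0638 and 0.0654). Those settings called 2.96% and 3.38% of all genes. DESeq2 called 15, the same 10 and Acat2, Fdps, Cyp51, Ebp and Npc2, all 5 lower (all genes: 10.6%).

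**Figure D4:**
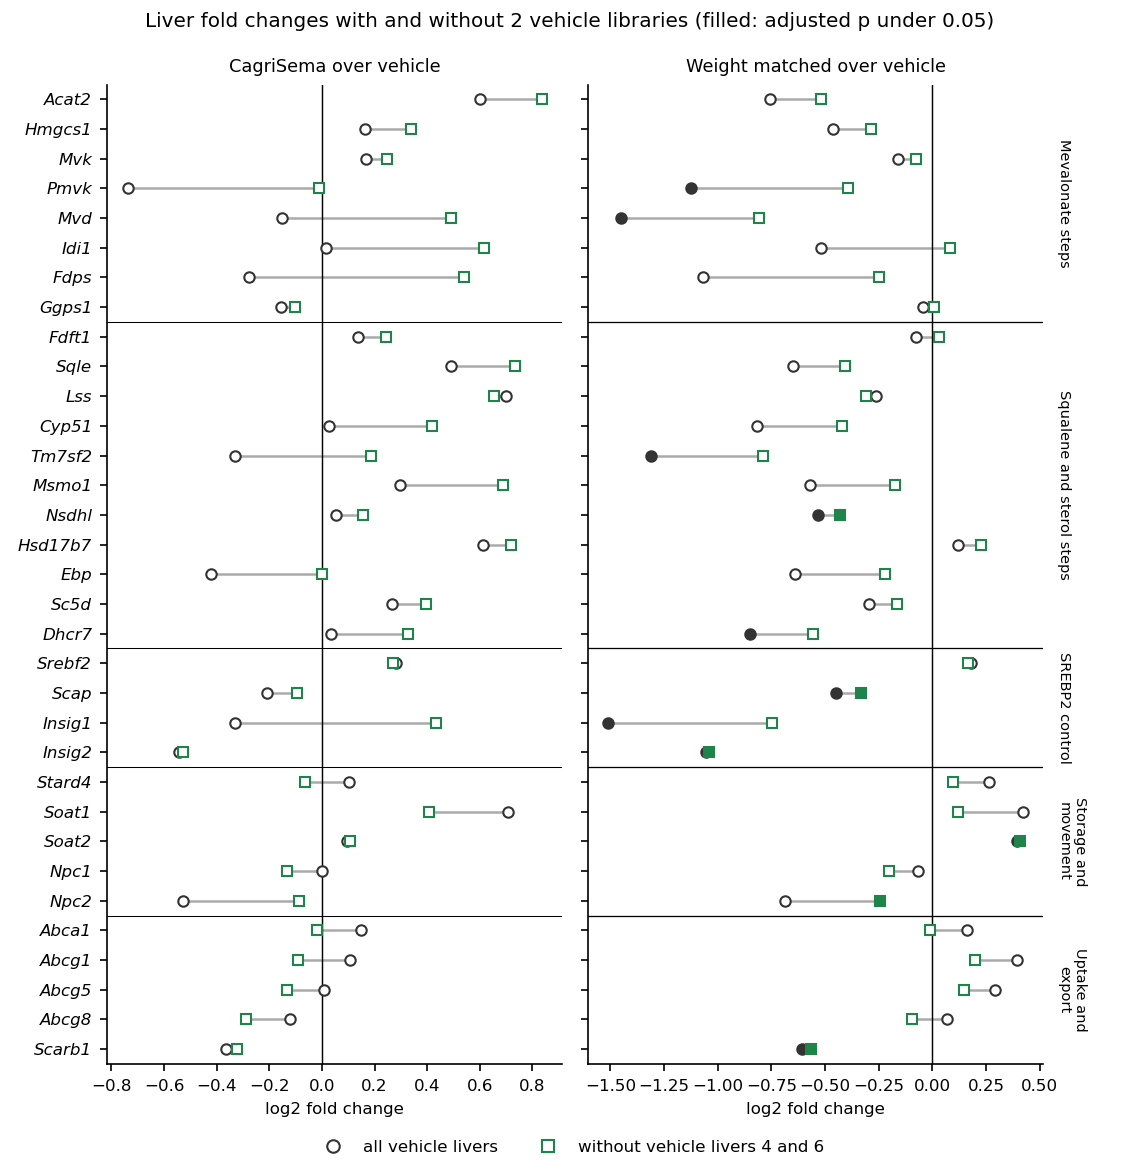
Circles are log2 fold changes of the 33 genes with all vehicle livers and squares those without vehicle livers 4 and 6, for CagriSema over vehicle (left) and weight matched over vehicle (right); filled symbols passed an adjusted p under 0.05. Squares of Pmvk, Mvd, Idi1, Fdps, Tm7sf2 and Insig1 lie well to the right of their circles, and those of Insig2, Scarb1 and Soat2 lie close to them.

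CagriSema over weight matched livers does not use the vehicle libraries in its difference, but the fit shares its estimate of spread with them. With only the 2 treated groups in the fit, 11 of 33 genes were higher and 0 lower (all genes: 4.85% in either direction, 2.26% higher): Acat2, Mvd, Fdps, Sqle, Lss, Cyp51, Nsdhl, Sc5d, Dhcr7, Insig1 and Insig2. Without vehicle livers 4 and 6 the same list less Insig1 and Insig2 was called, 9 genes (all genes: 4.62%, 2.12% higher), and DESeq2 called 7 of 33 (all genes: 1.74%, 0.835% higher). The fold changes themselves hardly moved: Mvd had 1.30 (adjusted p = 0.00631) with 2 groups and 1.30 (adjusted p = 0.107) with 3, and Cyp51 0.84 (adjusted p = 0.0172) and 0.84 (adjusted p = 0.187).

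With a single liver left out at a time, Insig2, Scarb1, Mvd, Nsdhl and Scap passed with weight matching in 16 of 16 fits, and Acat2 passed with CagriSema over weight matching in 15 of 15. Tm7sf2 lost its call without vehicle liver 4, at -1.01 (adjusted p = 0.0581), or 6, at -1.20 (adjusted p = 0.0530). Insig1 lost it without vehicle liver 4, at -1.20 (adjusted p = 0.0722), vehicle liver 6, at -1.26 (adjusted p = 0.0745), or weight matched liver 26, at -1.43 (adjusted p = 0.0560). Soat2 lost it without weight matched liver 25, at 0.39 (adjusted p = 0.0525), 27, at 0.36 (adjusted p = 0.0706), or 31, at 0.37 (adjusted p = 0.0638). Dhcr7 passed in 10 of 16 fits and not without vehicle liver 4, 5 or 6 or weight matched liver 25, 26 or 30, with -0.68 (adjusted p = 0.0636) without vehicle liver 4. Pmvk passed in 7 of 16 and not without vehicle liver 4 or 6 or any of the weight matched livers except 28, with -0.72 (adjusted p = 0.0906) without vehicle liver 4. Nsdhl with CagriSema over weight matching passed in 7 of 15 fits and not without weight matched liver 25, 26, 27, 28 or 31 or CagriSema liver 38, 39 or 40; its log2 fold change stayed between 0.54 and 0.65 and its adjusted p reached 0.0755. No direction changed.

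In quadriceps, 0 of the 30 genes tested passed the test in any of the 3 comparisons (all genes: 0.0321% for CagriSema over vehicle, 2.29% for weight matched over vehicle and 0.128% for CagriSema over weight matched). DESeq2 also called 0 in each (all genes by DESeq2: 0.3%, 6.33% and 0.273%). The numbers at an unadjusted p under 0.05 were 7, 6 and 0 of 30 (all genes: 10.3%, 19.2% and 7.65%). The log2 fold changes were below 0 for 23 of 30 genes with CagriSema (median -0.14) and for 24 of 30 with weight matching (median -0.14), against 52.1% and 53.2% of all genes, and the 2 comparisons share the vehicle libraries. Vehicle quadriceps 2 was the highest vehicle library for 15 of the 30 genes, among them Insig1 and Srebf2. Without it the medians were -0.10 and -0.08. Srebf2 spanned 46.2 to 56.6 CPM in CagriSema quadriceps libraries (median 48.6), 41.0 to 51.2 CPM in weight matched quadriceps libraries (median 48.2) and 45.9 to 77.8 CPM in vehicle quadriceps libraries (median 54.3). The 3 groups of Srebf2 overlapped, and its values were -0.15 ± 0.08 (adjusted p = 0.534) with CagriSema and -0.24 ± 0.08 (adjusted p = 0.112) with weight matching.

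Insig1 spanned 18.8 to 25.975 CPM in CagriSema quadriceps libraries (median 19.5), 14.049 to 24.1 CPM in weight matched quadriceps libraries (median 20.6) and 18.8 to 39.1 CPM in vehicle quadriceps libraries (median 23.0). The treated quadriceps libraries all lay below vehicle library 2 for Insig1, and its values were -0.30 ± 0.13 (adjusted p = 0.418) with CagriSema and -0.37 ± 0.13 (adjusted p = 0.126) with weight matching. Scarb1 spanned 6.57 to 9.98 CPM in CagriSema quadriceps libraries (median 8.96), 5.84 to 10.9 CPM in weight matched quadriceps libraries (median 8.26) and 8.43 to 13.1 CPM in vehicle quadriceps libraries (median 9.74). Scarb1 overlapped between the groups, with -0.25 ± 0.13 (adjusted p = 0.503) and -0.34 ± 0.13 (adjusted p = 0.143) in the same comparisons. Abca1 spanned 11.9 to 22.0 CPM in CagriSema quadriceps libraries (median 16.2), 12.9 to 25.9 CPM in weight matched quadriceps libraries (median 18.8) and 11.8 to 26.9 CPM in vehicle quadriceps libraries (median 18.5). Abca1 had -0.16 ± 0.19 (adjusted p = 0.799) and 0.06 ± 0.19 (adjusted p = 0.902). Stard4 had the lowest unadjusted p with CagriSema of the 30 genes, and its log2 fold change was -0.63 ± 0.22 (adjusted p = 0.321). The 6 fibroblast markers, all detected in quadriceps, summed to 389 to 706 CPM in CagriSema, 367 to 753 CPM in weight matched and 707 to 1642 CPM in vehicle quadriceps libraries, 2 of 5 tested were lower with weight matching, and their part in these values was not tested.

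Whether the response differed between tissues was tested as the liver log2 fold change minus the quadriceps one, in a fit of all 46 libraries. For weight matching over vehicle, 3 of 33 genes passed (9.09%, against 2.76% of all genes): Insig2 at -0.93 ± 0.19 (adjusted p = 0.00343), Tm7sf2 at -1.57 ± 0.41 (adjusted p = 0.0283) and Soat2 at 1.85 ± 0.51 (adjusted p = 0.0360). Of all genes, 1.37% were called higher and 1.38% lower. Within tissues, Insig2 had -1.05 in liver and -0.12 ± 0.07 (adjusted p = 0.351) in quadriceps. Tm7sf2 had -1.31 in liver and 0.26 ± 0.13 (adjusted p = 0.282) in quadriceps. Insig2 spanned 19.7 to 24.1 CPM in CagriSema quadriceps libraries (median 21.8), 20.2 to 25.5 CPM in weight matched quadriceps libraries (median 22.2) and 21.6 to 28.2 CPM in vehicle quadriceps libraries (median 24.2). Tm7sf2 spanned 2.81 to 4.49 CPM in CagriSema quadriceps libraries (median 3.40), 2.97 to 5.32 CPM in weight matched quadriceps libraries (median 3.93) and 2.55 to 3.90 CPM in vehicle quadriceps libraries (median 3.43). Both genes overlapped between all 3 quadriceps groups. Soat2 had 0 to 7 counts per quadriceps library, near or under the floor, and passed the filter of this fit through its liver counts. Its tissue difference rests on a handful of counts, and no quadriceps fold is given. Soat2 is counted in the 3 genes and the 9.09%, but its call is no test of a tissue difference. Abcg5, with 0 counts in every quadriceps library, and Abcg8, with at most 2 counts per quadriceps library, also entered this fit through their liver counts. They and Soat2 are in the 33 of each tissue difference here, though a tissue difference cannot be tested for them. For CagriSema over vehicle and for CagriSema over weight matching, 0 of 33 genes passed (all genes: 0.149% and 0.0213%). There were 8 and 15 at an unadjusted p under 0.05 (all genes: 15% and 7.31%). DESeq2 called 1 and 2 (all genes by DESeq2: 1.48% and 0.498%).

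The Tm7sf2 difference lost its call without vehicle liver 4, vehicle liver 6, vehicle quadriceps 5 or weight matched quadriceps 25, with an adjusted p of up to 0.0601. With no filter on low counts both Tm7sf2 (adjusted p = 0.0552) and Soat2 (adjusted p = 0.0553) missed the threshold. Without liver vehicle libraries 4 and 6 and quadriceps vehicle libraries 2 and 5, Tm7sf2 had -0.98 (adjusted p = 0.273) and Soat2 1.61 (adjusted p = 0.223). Quadriceps vehicle libraries 2 and 5 had the highest ribosomal protein shares of the quadriceps libraries, 0.932% and 0.961%. Library 2 was also the highest vehicle library for 15 of 30 genes, so leaving it out is not independent of the values tested. With single libraries left out, the Soat2 difference lost its call without vehicle quadriceps 2 or 7 or weight matched quadriceps 25, 27 or 28, with up to 0.101. Insig2 passed in 31 of 31 such fits, with a log2 difference of -1.02 to -0.82. Without vehicle liver 7, 10 genes passed, and without vehicle liver 2, 5 did. Without weight matched quadriceps 25, 1 gene passed, Insig2.

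In vehicle rats, 30 of the 33 genes were higher in liver than in quadriceps and 0 were lower (90.9%, against 83.4% of all 14110 genes tested in either direction, 43.4% higher and 40% lower). All 11 sterol enzymes, all 4 control genes and all 5 uptake and export genes were higher in liver. Soat2, Abcg5 and Abcg8 are among the 30, but they passed the filter of this fit through their liver counts. Their calls are therefore no test of a difference. Nsdhl averaged 368 ± 74.0 CPM in livers and 11.5 ± 1.18 CPM in quadriceps libraries (SD, n = 8 and 7), a log2 difference of 4.99 ± 0.14. Scarb1 averaged 158 ± 14.7 CPM in livers and 10.7 ± 1.93 CPM in quadriceps libraries. Srebf2 and Fdft1 had the smallest tissue differences that passed, 0.60 ± 0.10 and 0.53 ± 0.13. These levels rest on 1 scaling across tissues of unlike RNA makeup, and scaling by relative log expression also gave 30 called. The 3 genes not called were Mvd (9.61 ± 7.12 CPM in livers and 8.89 ± 2.02 CPM in quadriceps libraries), Ggps1 (12.4 ± 1.81 CPM and 13.6 ± 1.53 CPM) and Soat1 (1.71 ± 0.899 CPM and 2.70 ± 1.52 CPM).

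Abcg5 averaged 23.964 ± 12.7 CPM in vehicle livers and had 0 counts in all 23 quadriceps libraries, and Abcg8 averaged 3.23 ± 1.80 CPM in vehicle livers and had 4 counts in the 23 quadriceps libraries together, with 20 of them at 0. Soat2 averaged 58.2 ± 5.13 CPM in vehicle livers and 0.270 ± 0.211 CPM in vehicle quadriceps libraries. A count of 0 in quadriceps means that these transcripts were not detectable at this depth. The floor there was 0.182 to 0.262 CPM on raw library totals.

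**Figure D5:**
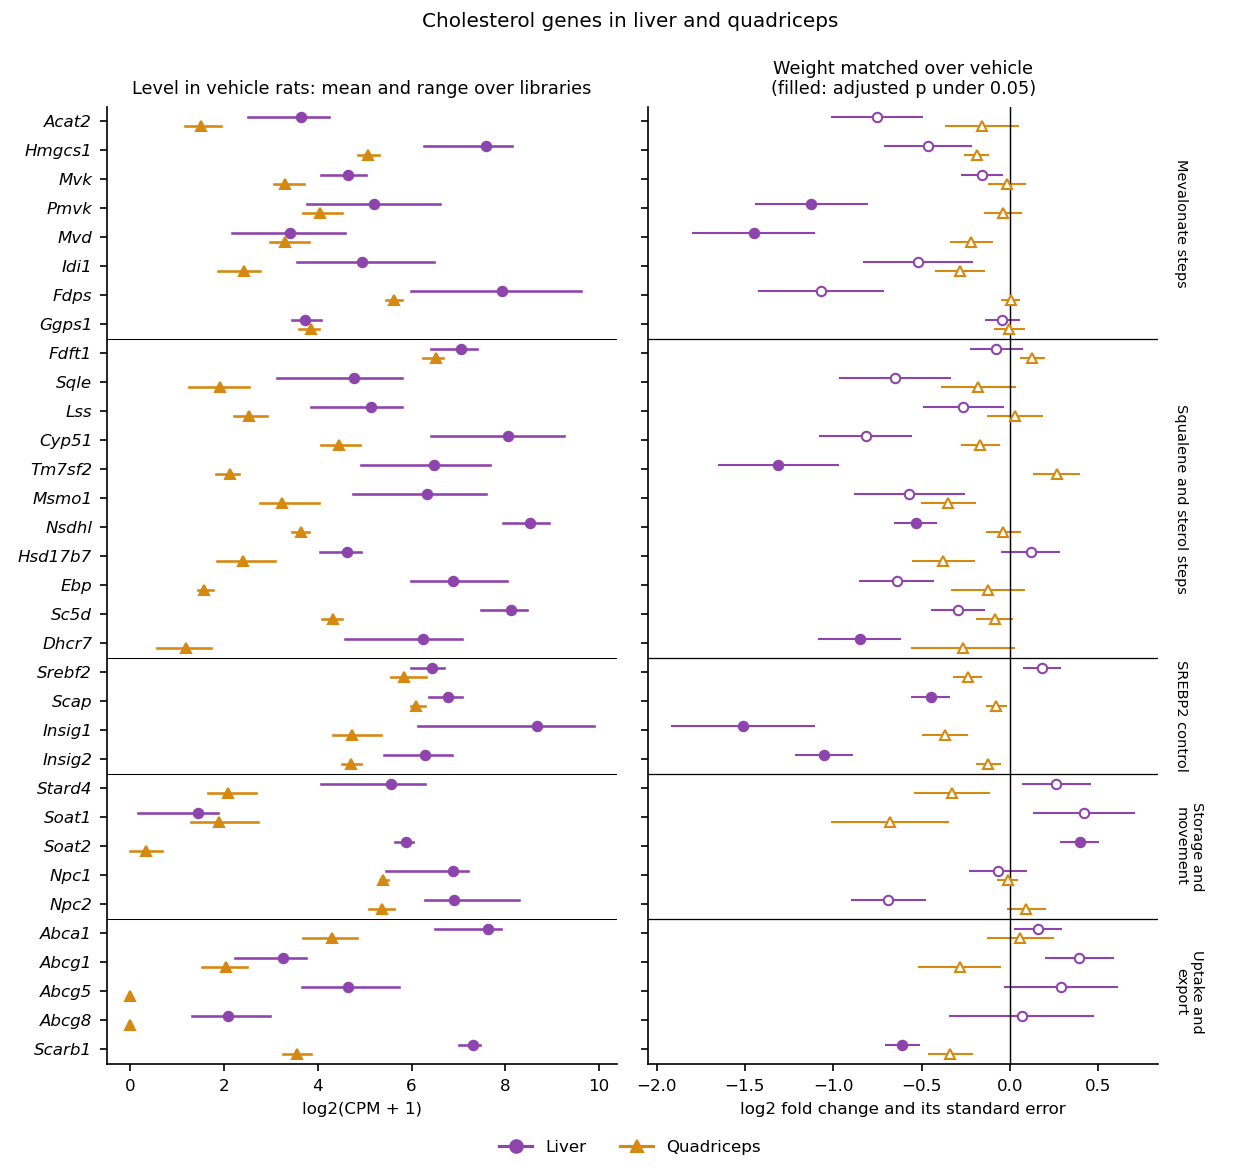
Left, the mean CPM and its range over libraries, drawn as log2(CPM + 1), in vehicle livers (circles) and vehicle quadriceps libraries (triangles) for the 33 genes; right, the log2 fold change of weight matched over vehicle rats with its SE in each tissue, filled where the adjusted p was under 0.05. Liver circles lie right of the triangles on the left side for all genes but Ggps1 and Soat1, with Mvd close to even, and no quadriceps triangle on the right side is filled.

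A list of 40 other sterol genes, of which 38 were tested in liver and 36 in quadriceps, had 8 called with weight matching in liver, 2 higher and 6 lower (21.1%, against 7.02% of all genes), 0 with CagriSema over vehicle and 0 with CagriSema over weight matching. The list was written with earlier results of these data known, so its share is no independent support. In quadriceps 1 of 36 was called, Aup1 with weight matching, a share of 2.78% that is near the 2.29% of all genes. Lipc, the hepatic lipase, had the lowest p and a log2 fold change of -0.53 ± 0.09 (adjusted p = 0.00144) with weight matching. CagriSema gave -0.41 ± 0.10 (adjusted p = 0.0615) over vehicle and 0.12 ± 0.10 (adjusted p = 0.787) over weight matched livers for Lipc. Ces1d, a carboxylesterase, had 1.51 ± 0.33 (adjusted p = 0.00684) with weight matching. CagriSema gave 0.62 ± 0.33 (adjusted p = 0.316) over vehicle and -0.89 ± 0.33 (adjusted p = 0.277) over weight matched livers for Ces1d. Aup1, an endoplasmic reticulum protein of lipid droplets and sterol-regulated degradation, had 0.20 ± 0.05 (adjusted p = 0.0449) in quadriceps with weight matching. The others called in liver with weight matching were Nr1h3, Lpcat3, Fads1, Fads2 and Tmem97, lower by log2 values of -0.29 to -1.21, and Cyp27a1, higher at 0.39 ± 0.12 (adjusted p = 0.0449).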

How the data were processed

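Bulk RNA of 46 libraries was measured as raw counts per gene, deposited by the authors as a single table of both tissues; whole numbers with unequal library sums showed them to be unnormalised. Reads were trimmed with fastp 0.23.1 and aligned with STAR 2.5.2b, per the submitters' processing notes, from libraries made with a UMI kit, per the labels' protocols. The sources used here do not give the counter, the genome build, strand handling or whether UMIs were used; if they were not, duplicate reads add to the spread of the counts. 1 further count column matched no sample and was not used.

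Each tissue was fitted over its 3 groups with edgeR 4.0.16 (R 4.3.3): genes kept by filterByExpr, trimmed-mean scaling, quasi-likelihood tests with robust dispersion, Benjamini-Hochberg adjustment over all genes tested and a threshold of 0.05. The SE of a log2 fold change is its size divided by the square root of F. A fit of all 46 libraries gave the tissue differences. Scripts were tested on simulated data. Alternatives were DESeq2 1.42.0, relative log expression scaling, no filter on low counts, 2 groups alone, libraries left out, and a replicate block.

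The 33 genes, the other sterol genes and the marker lists were chosen with earlier results of these data known. Values are given in full for genes past the threshold in any comparison and for Srebf2, Insig1, Scarb1, Abca1, Abcg5 and Abcg8; Cyp51 was added after its values were seen. No 2 libraries agreed within counting noise. CPM is counts scaled to a common library total, and levels are not compared between genes, since no gene lengths were used. Floors and counting statements cover counting error only. Promoter windows came from RefSeq (GRCr8) by gene symbol.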

Additional observations from a re-analysis of the deposited data

Results flagged for a closer look

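Single libraries stood far from the others of their group in 13 of 87 groups examined over 16 genes, by the gap to the nearest library relative to the group's range. Chance gives about 1 in 20 for independent groups of normally distributed values. The values here were CPM without a transform, and the genes share libraries, so the 13 cannot be measured against that rate. In liver, CagriSema library 38 was far above the other CagriSema livers for Acat2, at 35.7 CPM, and for Tm7sf2, at 170.3 CPM. Weight matched liver 28 was far above its group for Pmvk, at 24.7 CPM, and for Tm7sf2, at 63.2 CPM. Weight matched liver 32 was far above its group for both members of the sterol export pair, at 63.9 CPM for Abcg5 and 11.3 CPM for Abcg8. Vehicle liver 4 was far above its group for Cyp51, at 621 CPM, and vehicle liver 7, the lowest vehicle liver for 18 of 19 synthesis enzymes, was far above its group for Abcg5, at 53.1 CPM.

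In quadriceps, vehicle library 2 was far above its group for Mvd, at 12.9 CPM, Srebf2, at 77.8 CPM, and Insig1, at 39.1 CPM. CagriSema library 33 was far above its group for Insig1, at 25.97 CPM, and CagriSema library 34 far below its group for Scarb1, at 6.57 CPM.

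The response to weight matching over vehicle was called different between liver and quadriceps for 3 genes, by the test of the difference itself. The liver log2 fold change minus the quadriceps one was -1.57 for Tm7sf2, -0.93 for Insig2 and 1.85 for Soat2. Soat2 had 0 to 7 counts per quadriceps library, so its call is no test of a tissue difference.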

How the results depend on the processing

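All 33 genes passed the filter on low counts in liver, while in quadriceps Soat2, Abcg5 and Abcg8 lay near or under the floor and their changes were not detectable at this depth. No direction of a called gene was turned by any setting. For weight matched over vehicle livers, 10 genes were called and 6 to 15 with single livers left out, 10 with relative log expression scaling, 7 with no filter on low counts, 7 with the 2 groups alone and 15 by DESeq2 (10.6% of all genes, against 7.02%); without vehicle livers 4 and 6, 6 were called and the median log2 fold change of the 33 genes was -0.22, against -0.46 with them; the cause was not tested. For CagriSema over vehicle livers, DESeq2 called 2 (2.28% of all genes), against 0 (0.354%), and single livers left out gave 0 to 1 (Insig2 without vehicle liver 7). For CagriSema over weight matched livers, 2 genes were called, DESeq2 called 7 (1.74% of all genes), the 2 groups alone gave 11 (4.85%), leaving out vehicle livers 4 and 6 gave 9 (4.62%), and single livers left out gave 1 to 3. For the tissue difference of weight matching, 3 genes were called (2.76% of all genes), against 8 by DESeq2 (5.79%), 1 with no filter on low counts (0.957%), 1 without liver vehicle libraries 4 and 6 and quadriceps vehicle libraries 2 and 5 (1.33%), and 1 to 10 with single libraries left out. For the tissue difference of CagriSema over vehicle, DESeq2 called 1 (1.48% of all genes), against 0 (0.149%). For that of CagriSema over weight matching, DESeq2 called 2 (0.498% of all genes) and leaving out the same 4 vehicle libraries gave 3 (0.982%), against 0 (0.0213%).

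Liver and quadriceps libraries share numbers, and the fit with the number as a replicate block called 2 genes in the tissue difference of weight matching, Insig2 and Tm7sf2, and 282 of all genes; Soat2 had an adjusted p of 0.0849. The labels do not say what a number shares, and the deviations of the 22 same-numbered pairs correlated at 0.0024 to 0.2136, with 7 over 0.1 and the others at or under it, so the numbers were not taken as pairs. Of the 22 livers, 12 correlated best with their own number among the 23 quadriceps libraries, a hint from the data and not from the design.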
